A study of Mus musculus with 16 samples.

Results

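The voltage-gated sodium channel genes were followed in nuclear RNA of the mouse colon. The 9 genes examined, Scn1a, Scn2a, Scn3a, Scn7a, Scn8a, Scn9a, Scn10a, Scn11a and Scn3b, were chosen by name as members of the Scn family and matched by GRCm38 symbol to 9 of the 51912 Ensembl genes in the count table. All mice were C57BL/6, were kept specific pathogen-free and had received, 5 weeks before isolation, an intravenous AAV9 vector whose CaMKII promoter drives an EGFP held at the nuclear envelope. In 4 groups of 4 libraries, the samples were neuronal (EGFP+) nuclei of mice injected with the aryl hydrocarbon receptor (AhR) agonist 3-methylcholanthrene, neuronal nuclei of mice injected with corn oil, non-neuronal (EGFP-) nuclei of agonist mice and non-neuronal nuclei of corn oil mice. Injection preceded isolation of the muscle layer and myenteric plexus by 14 hours. Neuronal here means nuclei in which the vector was expressed, so neurons that it did not reach or whose CaMKII promoter was silent would be among the EGFP- nuclei. Age, sex and dose are missing from the labels, as is whether libraries of 1 group stem from different mice. The p-values can therefore reflect technical spread alone.

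Sodium channels open when the membrane depolarises and carry the inward current of the action potential. Each channel is a large alpha subunit, which forms the pore, often joined by small beta subunits that change its gating and its place in the membrane. The alpha subunits differ in their sensitivity to the puffer fish poison tetrodotoxin: those of Scn1a, Scn2a, Scn3a, Scn8a and Scn9a are sensitive, and those of Scn10a and Scn11a are resistant. Scn7a encodes a related protein that is known as a sensor of extracellular sodium and does not open with voltage in the usual way, and Scn3b encodes a beta subunit. In the gut, neurons of the myenteric plexus fire sodium action potentials, and the Scn11a channel is known for a persistent current in enteric sensory neurons.

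A short stretch of the first pore loop is shown because it holds a codon that differed between the sensitive and the resistant channels shown, whose levels are compared later. The lines give 30 coding bases of 6 of the genes from GENCODE M21 transcripts, with positions in GRCm38. Capitals mark the codon of the residue that, in rat and human channels, is known to set tetrodotoxin sensitivity.
Scn2a, chr2:65688430-65688459, plus strand: caagacTTCtgggaaaacctttatcagctg
Scn3a, chr2:65521792-65521821, minus strand: caagacTACtgggagaacctttaccagttg
Scn8a, chr15:100971632-100971661, plus strand: caggacTACtgggagaacttataccagctg
Scn9a, chr2:66548980-66549009, minus strand: caggacTACtgggagaacctttatcaacag
Scn10a, chr9:119666366-119666395, minus strand: caggacTCCtgggaacggctgtaccagcag
Scn11a, chr9:119805659-119805688, minus strand: caagacTCCtgggagaagctttatcgacag
The marked codon was TTC or TAC in the 4 genes of sensitive channels shown and TCC in Scn10a and Scn11a. Scn2a and Scn3a differed at 4 of the 30 bases and Scn10a and Scn11a at 8. Scn9a and Scn11a, which are of different classes, differed at 4, so the stretch as a whole did not separate the classes. In Scn7a no stretch matched the search pattern. Scn1a, Scn2a, Scn3a, Scn7a and Scn9a lie on chromosome 2, Scn10a, Scn11a and Scn3b on chromosome 9, and Scn8a on chromosome 15.

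Libraries held 2663738 to 4902303 counts. Summed over 7 neuronal marker genes (Elavl4, Snap25, Uchl1, Tubb3, Ret, Prph and Stmn2), the level by library size was 1939 to 2795 CPM (counts scaled to the library total) in neuronal agonist and 2069 to 2527 CPM in neuronal corn oil libraries. It was 31.6 to 279 CPM in non-neuronal agonist and 81.6 to 316.5 CPM in non-neuronal corn oil libraries, so neuronal RNA was low but not absent there. Of the 7, only Tubb3 went the other way, with agonist. Its TMM-scaled means were 12.3 CPM in non-neuronal and 5.93 CPM in neuronal nuclei. The non-neuronal agonist libraries had a median of 1.53 and a highest value of 46.3 CPM for it. Mitochondrially encoded transcripts took 10.3% to 42.8% of counts in non-neuronal agonist libraries and 11.2% to 26.3% in non-neuronal corn oil libraries, against at most 6.11% in neuronal ones. Neuronal agonist library 1 stood apart, with the fewest genes detected (17293) and a TMM scaling factor of 0.903, against 1.18 to 1.29 in the other neuronal libraries.

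Among the neuronal nuclei, Scn2a and Scn3a had the highest levels per length, and Scn9a came next. Levels were set against the length of each gene's exons, as TMM-scaled CPM per kb. In corn oil mice Scn2a averaged 46.1 ± 3.87 CPM per kb and Scn3a 41.2 ± 7.01 (SD, n = 4 each), and their libraries overlapped. Scn9a averaged 26.1 ± 3.45 CPM per kb, below every library of Scn3a and above every library of Scn7a. Scn7a (14.4 ± 4.64), Scn11a (13.7 ± 2.58) and Scn3b (12.3 ± 2.52 CPM per kb) overlapped each other. The order of their means depends on the length used. Merged exons and the longest transcript hold 5461 and 4150 bases for Scn3b and 5931 and 5899 for Scn11a, but 7338 by either for Scn7a. For Scn2a they hold 12732 and 8935. Scn8a (8.82 ± 0.458) overlapped Scn3b, and Scn1a (4.03 ± 1.28 CPM per kb), below every library of Scn8a, was the lowest of the well detected alpha genes described here. Scn10a averaged 0.0619 ± 0.0816 CPM per kb and was close to absent.

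In neuronal nuclei of agonist mice the same 3 genes led, and more of the neighbours overlapped. Scn2a averaged 66.5 ± 37.2 CPM per kb, with Scn3a at 41.1 ± 4.15 and Scn9a at 30.4 ± 5.36 (SD, n = 4). Scn11a (20.4 ± 12.8), Scn3b (18.3 ± 14.7), Scn7a (16.6 ± 4.52) and Scn8a (10.8 ± 5.34 CPM per kb) followed, each overlapping the next. Scn2a stood at 122 CPM per kb in library 1 and at 44.3 to 53.8 in the other 3.

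**Figure D1:**
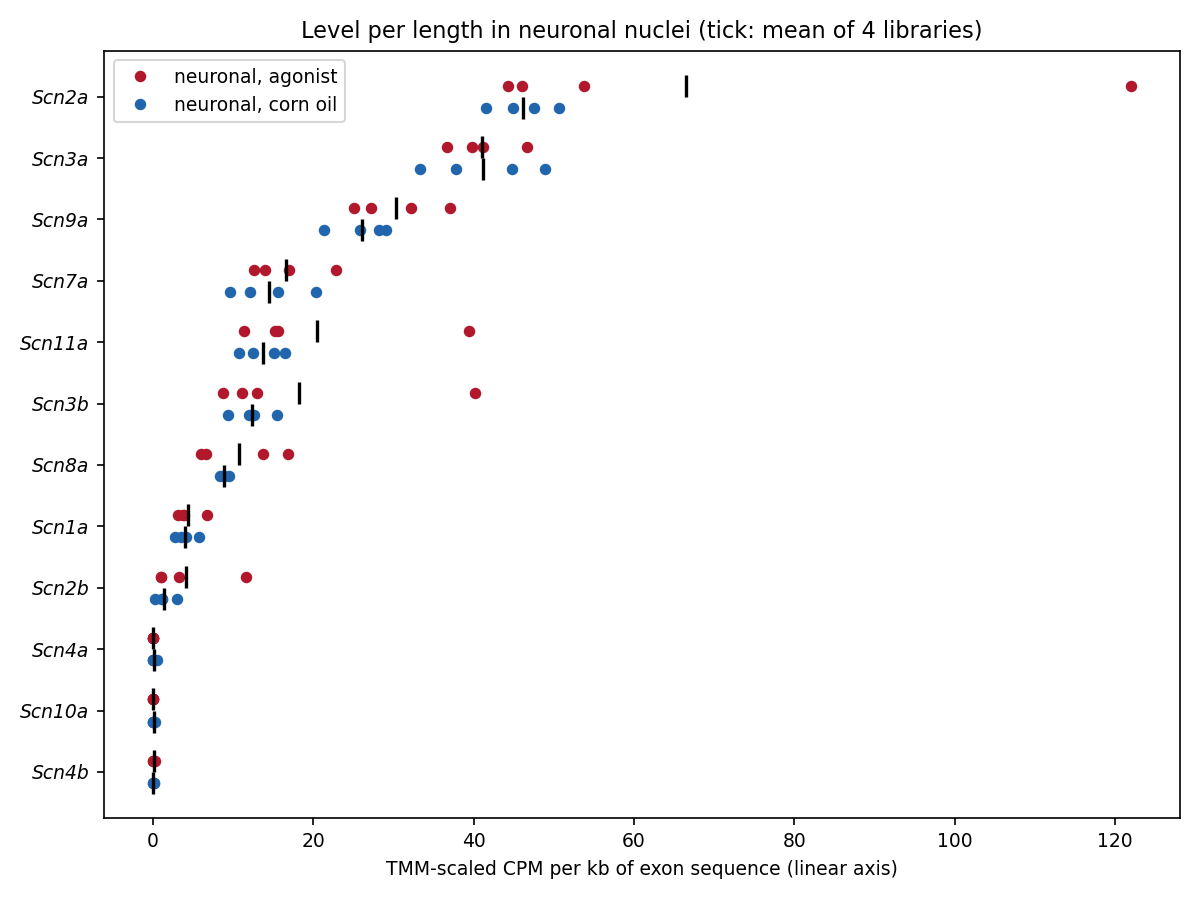
Level per length of the 9 genes and of 3 other Scn genes in neuronal nuclei, in TMM-scaled CPM per kb of exon sequence on a linear axis. Each point is 1 library, agonist above corn oil for each gene, and ticks are means of 4 libraries. Scn2a, Scn3a and Scn9a lie to the right, and the right-hand points of Scn2a, Scn11a and Scn3b are agonist library 1.

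Setting neuronal against non-neuronal nuclei asks which of these genes belong to the tagged neurons. With agonist, 5 of the 9 genes were higher in neuronal nuclei and Scn7a was lower, by edgeR's quasi-likelihood test with Benjamini-Hochberg adjustment over 14065 genes. With corn oil, 7 were higher and none was lower over 15285 genes. Of all genes tested, 6.67% were higher and 6.97% lower with agonist, and 11.8% were higher and 13.5% lower with corn oil. Scn10a did not pass the count filter in either comparison, so 8 of the 9 genes were tested. All 8 had an unadjusted p under 0.05 in both treatments, beside 25.9% of all genes with agonist and 35.8% with corn oil. The median log2 fold change of these 8 was 4.25 with agonist and 3.70 with corn oil, beside medians of -0.15 and -0.11 over all genes tested. Every neuronal library lay above every non-neuronal one for 7 genes in both treatments, beside 11.7% of all genes with agonist and 15.1% with corn oil. The reverse held for Scn7a with agonist, beside 9.96% of all genes. With library size in place of TMM scaling the median of all genes moved by 0.58 on the log2 scale with agonist and by 0.22 with corn oil. With agonist the share of called genes that were higher was then 67.2%, against 48.9% with TMM, and with library size 6 of the 9 genes were called higher and 0 lower. In bulk samples, fewer cells of a type and less RNA per cell cannot be told apart.

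Scn2a (ENSMUSG00000075318) encodes an alpha subunit known from axons of central neurons. It stood at 1553, 564, 586 and 685 TMM-scaled CPM in neuronal nuclei, against 45.3, 11.7, 21.2 and 55.8 CPM in non-neuronal nuclei of agonist mice. With corn oil its levels were 644, 605, 528 and 571 CPM in neuronal nuclei, against 35.5, 19.9, 25.7 and 33.7 CPM in non-neuronal nuclei. Neuronal libraries were far above the others in both treatments, without overlap. The log2 fold change was 4.61 with agonist (SE 0.55, adjusted p = 0.000115) and 4.44 with corn oil (SE 0.25, adjusted p = 8.14e-07).

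Scn3a (ENSMUSG00000057182), an alpha subunit best known from the developing brain, stood at 514, 457, 495 and 581 CPM in neuronal nuclei, against 12.9, 27.5, 27.7 and 66.0 CPM in non-neuronal nuclei of agonist mice. Its levels in corn oil mice were 470.5, 610.0, 415 and 557.5 CPM in neuronal nuclei, against 48.2, 18.8, 21.5 and 34.7 CPM in non-neuronal nuclei. The neuronal libraries formed a narrow band above the others. Its log2 fold change was 3.90 with agonist (SE 0.49, adjusted p = 0.000169) and 4.14 with corn oil (SE 0.32, adjusted p = 4.06e-06).

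Scn9a (ENSMUSG00000075316) encodes the channel whose loss abolishes pain in humans. It stood at 348, 411, 473 and 319 CPM in neuronal nuclei, against 1.51, 17.2, 24.3 and 4.17 CPM in non-neuronal nuclei of agonist mice. In corn oil mice its libraries held 329.9, 359.9, 273 and 371 CPM in neuronal nuclei, against 11.5, 3.00, 1.50 and 27.7 CPM in non-neuronal nuclei. Neuronal libraries varied little, while non-neuronal ones were spread over more than 10-fold. Its mean level in non-neuronal nuclei was 3.04% of the neuronal mean with agonist and 3.28% with corn oil, against 3.96% and 4.89% for Scn2a and 6.55% and 6.00% for Scn3a. On the log2 scale the difference was 5.03 with agonist (SE 0.72, adjusted p = 0.00041) and 4.99 with corn oil (SE 0.68, adjusted p = 0.000169). It was 5.63 with agonist without non-neuronal agonist library 3, and 6.05 with corn oil without non-neuronal corn oil library 4, each the highest of its group.

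Scn8a (ENSMUSG00000023033), an alpha subunit of the axon initial segment and nodes of Ranvier, stood at 265, 216, 104 and 93.8 CPM in neuronal nuclei of agonist mice. It stood at 5.29, 0.903, 2.62 and 0.23 CPM in non-neuronal nuclei of the same treatment. The corn oil values were 132, 149, 137 and 139 CPM in neuronal nuclei, against 37.3, 30.03, 11.1 and 7.51 CPM in non-neuronal nuclei. The neuronal libraries of corn oil mice were nearly equal, and those of agonist mice lay on both sides of them. The log2 fold change between populations was 6.20 with agonist (SE 0.88, adjusted p = 0.000405) and 2.78 with corn oil (SE 0.46, adjusted p = 0.00068). Without non-neuronal agonist library 1 the agonist value was 7.01.

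Scn1a (ENSMUSG00000064329), an alpha subunit known from inhibitory neurons of the brain, was the lowest of the sensitive channels among the 9 genes. It stood at 41.3, 43.6, 35.0 and 75.5 CPM in neuronal nuclei, against 1.89, 12.2, 0 and 0.463 CPM in non-neuronal nuclei of agonist mice. After corn oil it was at 39.3, 64.4, 30.9 and 45.2 CPM in neuronal nuclei, against 4.14, 9.01, 4.49 and 1.295 CPM in non-neuronal nuclei. No libraries overlapped between populations, but the test passed with corn oil (3.34, SE 0.59, adjusted p = 0.00108) and not with agonist (3.73, SE 1.26, adjusted p = 0.0635). Without non-neuronal agonist library 2, the highest of its group, the agonist value was 5.95 on the log2 scale (adjusted p = 0.00823, between 0.00526 and 0.142 over the alternatives).

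Of the resistant channels among the 9 genes, Scn11a (ENSMUSG00000034115) was the one that was higher in neuronal nuclei, and it is known from nociceptors and enteric sensory neurons. It stood at 234, 90.4, 67.5 and 92.1 CPM in neuronal nuclei, against 0.378, 5.42, 0.785 and 0 CPM in non-neuronal nuclei of agonist mice. Under corn oil the gene had 63.6, 89.8, 97.4 and 73.7 CPM in neuronal nuclei, against 1.18, 7.51, 8.37 and 3.63 CPM in non-neuronal nuclei. The populations did not overlap in either treatment. The log2 fold change was 6.22 with agonist (SE 1.13, adjusted p = 0.00208) and 4.06 with corn oil (SE 0.54, adjusted p = 0.000148). Without non-neuronal agonist library 2, the highest of its group, the agonist value was 8.17.

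Scn10a (ENSMUSG00000034533), the channel known from dorsal root ganglion nociceptors, was close to absent from the neuronal nuclei. The 4 neuronal agonist libraries held 0 counts in all, which allows up to 0.208 CPM, and the 4 neuronal corn oil libraries held 8 counts. Non-neuronal agonist libraries held 268 counts, of which 263 (119 CPM) were in library 2, and the non-neuronal corn oil libraries held 26. Outside that single library, no library of any group exceeded 6.38 CPM. No fold change is given, since the gene did not pass the count filter.

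**Figure D2:**
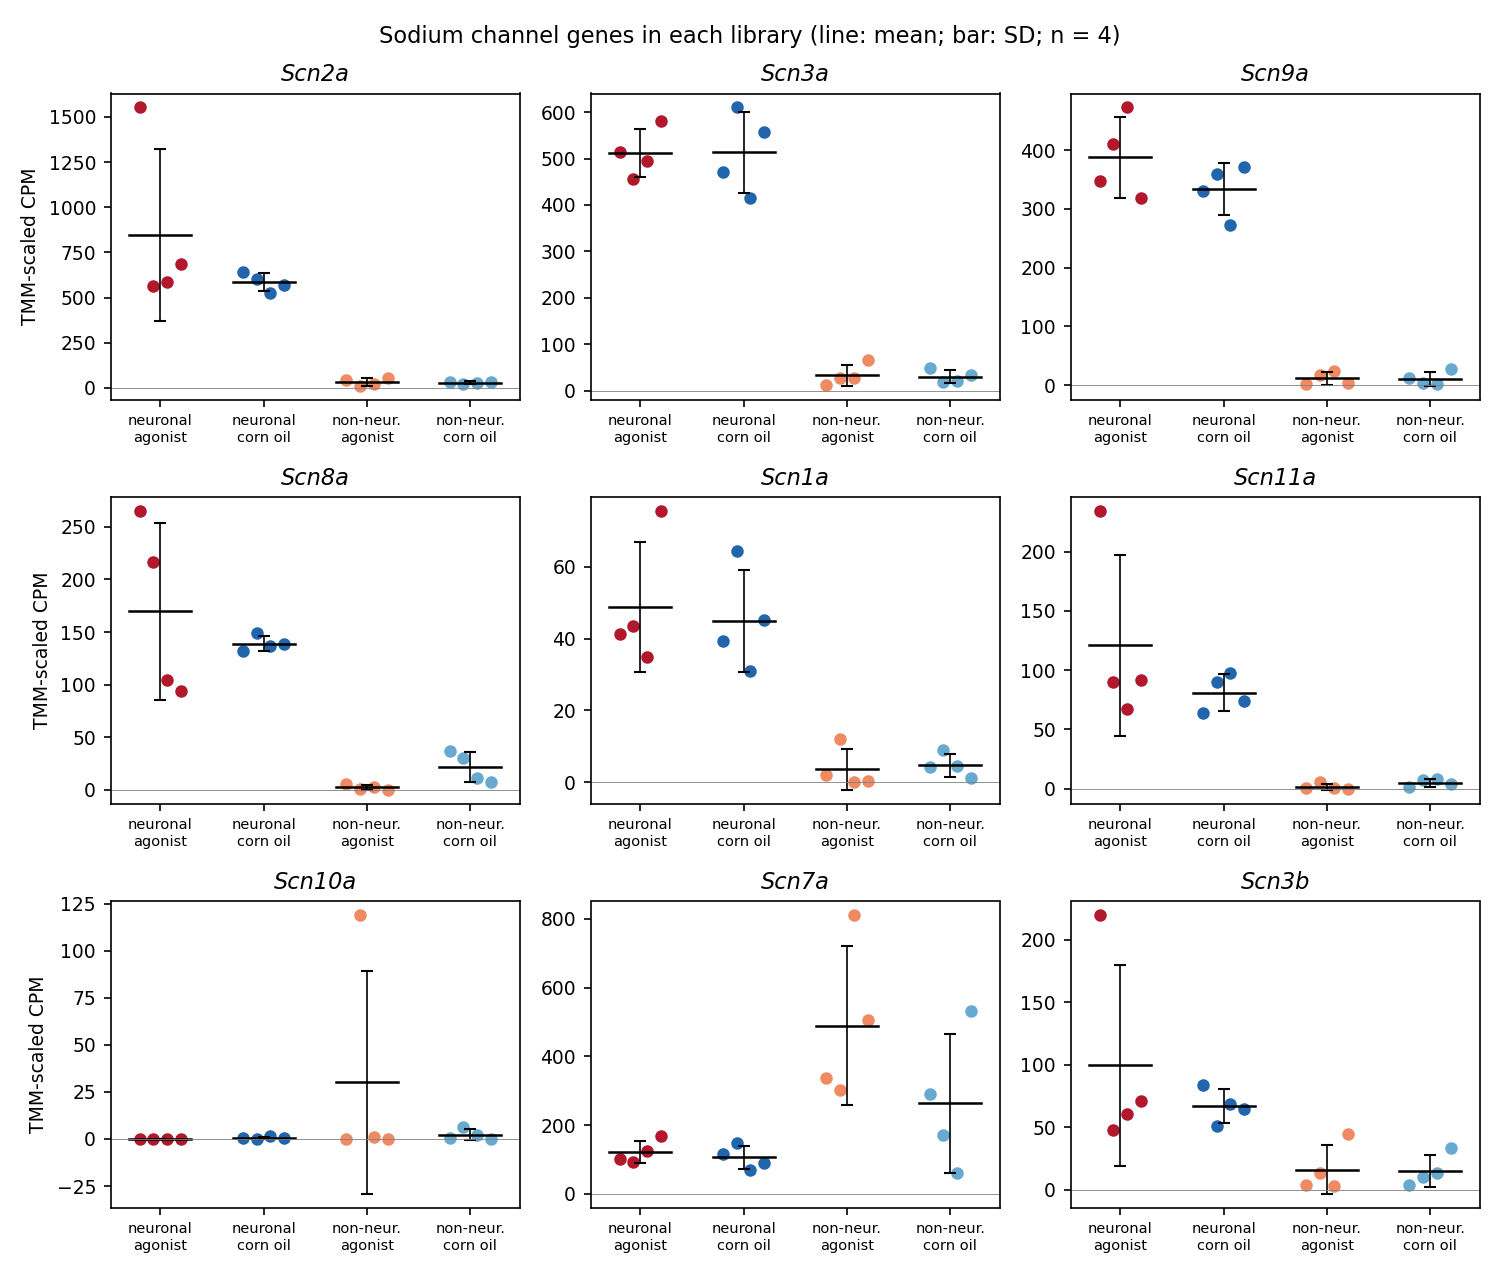
Levels of the 9 genes in all 16 libraries, in TMM-scaled CPM on linear axes that differ between panels. Points are libraries 1 to 4 from left to right, lines are means and bars are SD. Neuronal libraries lie above non-neuronal ones for 7 genes, most non-neuronal ones lie higher for Scn7a, and Scn10a is near 0 except in non-neuronal agonist library 2 (119 CPM).

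Scn7a (ENSMUSG00000034810), the gene of the sodium sensor, was lower in neuronal nuclei of agonist mice, with no call in corn oil mice. It stood at 103, 92.6, 125 and 167 CPM in neuronal nuclei, against 337, 303, 810.3 and 506 CPM in non-neuronal nuclei of agonist mice. For corn oil mice the values were 115, 149, 70.8 and 89.2 CPM in neuronal nuclei, against 289, 171, 61.9 and 532 CPM in non-neuronal nuclei. The populations did not overlap with agonist, and with corn oil they overlapped through non-neuronal library 3. Between populations its log2 fold change was -2.01 with agonist (SE 0.40, adjusted p = 0.0038) and -1.24 with corn oil (SE 0.49, unadjusted p = 0.026, adjusted p = 0.0863), where DESeq2 gave -1.27 (adjusted p = 0.0465). Without non-neuronal corn oil library 3 the corn oil comparison gave -1.52 (adjusted p = 0.0095, between 0.00155 and 0.327 over the alternatives), and without library 4 it gave -0.61. With library size in place of TMM scaling the agonist value was -1.49 with an adjusted p of 0.0664, so that its call ended.

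Among non-neuronal libraries, Scn7a is set beside the markers of several cell types. By library size, the 5 fibroblast markers (Pdgfra, Col3a1, Dcn, Col1a1 and Lum), none of them at 0 over a whole group, summed to 189, 206, 806 and 735 CPM in non-neuronal agonist libraries 1 to 4. They summed to 787, 443, 201 and 1336 CPM in non-neuronal corn oil libraries 1 to 4. The lowest and the highest of the corn oil libraries, 3 and 4, were also the lowest and the highest for Scn7a, and libraries 3 and 4 were the higher ones of the agonist group for both. The 4 endothelial markers summed to 58.8 to 254 CPM in agonist and 70.7 to 192 CPM in corn oil libraries, and the 6 glial markers to 35.9 to 54.0 and 22.0 to 75.9 CPM. In corn oil libraries 1 to 4 the 6 smooth muscle markers summed to 4532, 4174, 2904 and 11990 CPM, the 3 markers of interstitial cells of Cajal to 260, 175, 120 and 320 CPM and the 7 neuronal markers to 162, 119, 81.6 and 316.5 CPM. These 3 lists, like the fibroblast, endothelial and glial ones, were thus in the same order of libraries as Scn7a, while the 5 epithelial markers (6453, 5148, 11030 and 1538 CPM) were highest in library 3 and lowest in library 4. The 5 macrophage markers summed to 53.7 to 226 CPM in agonist and 75.3 to 156 CPM in corn oil libraries. In agonist libraries 1 to 4 the endothelial markers summed to 58.8, 133, 254 and 221 CPM. The smooth muscle markers summed to 1548, 2725, 5468 and 4287 CPM and the neuronal ones to 31.6, 87.4, 279 and 124 CPM. These lists, and those of macrophages and interstitial cells of Cajal, were thus also higher in agonist libraries 3 and 4. The glial and epithelial sums were lowest in agonist library 3 and highest in library 4. The part of these cells in the Scn7a level was not tested.

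**Figure D3:**
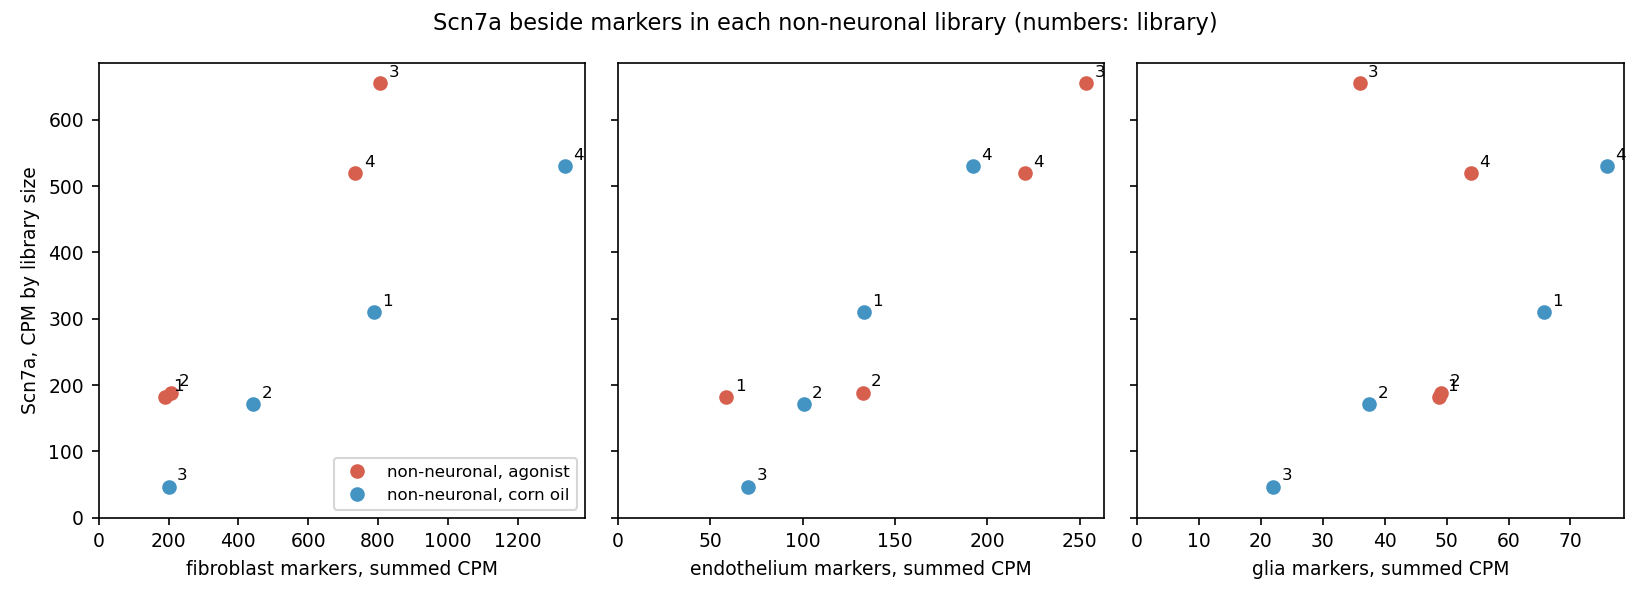
Scn7a in each non-neuronal library (vertical axis, CPM by library size) beside the summed CPM of fibroblast, endothelial and glial markers (horizontal axes). Each point is 1 library, numbered within its group. Within the corn oil group, libraries 3 and 4 lie lowest and highest both for the fibroblast markers (201 and 1336 CPM) and for Scn7a. They also do so for the endothelial (70.7 and 192 CPM) and glial markers (22.0 and 75.9 CPM).

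Scn3b (ENSMUSG00000049281), the beta subunit, was higher in neuronal nuclei of corn oil mice. It stood at 220, 47.9, 60.7 and 70.8 CPM in neuronal nuclei, against 4.16, 13.5, 2.88 and 44.5 CPM in non-neuronal nuclei of agonist mice. With corn oil the libraries gave 84.3, 50.8, 68.9 and 65.1 CPM in neuronal nuclei, against 3.85, 10.1, 13.2 and 33.4 CPM in non-neuronal nuclei. The populations did not overlap, but library 4 of each non-neuronal group came close to the lowest neuronal ones. The fitted log2 fold change was 2.54 with agonist (SE 0.89, adjusted p = 0.0745, not called) and 2.23 with corn oil (SE 0.55, adjusted p = 0.00902). Without non-neuronal agonist library 4 the agonist value was 3.81 (adjusted p = 0.016, between 0.0101 and 0.236 over the alternatives). Without non-neuronal corn oil library 4 the corn oil value was 3.01. With all 16 libraries in 1 fit it was 2.15, and its call ended at an adjusted p of 0.0611.

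Of 3 other Scn genes, Scn2b differed between populations with agonist. Scn2b, a beta subunit, had 314 counts in neuronal and 3 in non-neuronal agonist libraries, a ratio by library size of 126.5 with a 95% interval from 42.9 to 617 that covers counting error only. The edgeR fit with TMM scaling called it (adjusted p = 0.0153). It had 98 in neuronal and 58 in non-neuronal corn oil libraries (log2 fold change 0.37, adjusted p = 0.868). Neuronal agonist library 1 held 213 of the 314, and non-neuronal corn oil library 2 held 45 of the 58. Scn4a, the skeletal muscle channel, had 1 count in neuronal and 4 in non-neuronal libraries with agonist, and 14 in neuronal and 37 in non-neuronal libraries with corn oil. The beta subunit gene Scn4b had 6 in neuronal and 10 in non-neuronal libraries with agonist, and 2 in neuronal and 12 in non-neuronal libraries with corn oil.

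Of the level per length summed over 9 alpha genes (the 8 described and Scn4a), genes of sensitive channels made up most in neuronal nuclei, and Scn7a on average most in non-neuronal nuclei. The sum per kb was 190.1 ± 50.1 CPM in neuronal nuclei, against 77.5 ± 28.5 CPM in non-neuronal nuclei of agonist mice, and 154.6 ± 17.01 CPM in neuronal nuclei, against 44.8 ± 28.6 CPM in non-neuronal nuclei of corn oil mice (SD, n = 4 each). Genes of tetrodotoxin-sensitive channels, here with Scn4a, made up 80.7% ± 2.04 of the neuronal and 9.34% ± 3.22 of the non-neuronal sum with agonist. They made up 81.8% ± 2.08 of the neuronal and 21.5% ± 9.74 of the non-neuronal sum with corn oil. Scn7a made up 9.18% ± 3.29 of the neuronal and 84.3% ± 12.7 of the non-neuronal sum with agonist, and 9.20% ± 2.06 of the neuronal and 73.8% ± 14.1 of the non-neuronal sum with corn oil. The resistant channel genes Scn10a and Scn11a made up 10.1% ± 3.38 of the neuronal sum with agonist and 9.01% ± 2.35 with corn oil, and ranged from 0 to 25.2% of the non-neuronal sum with agonist and from 0.544% to 10.9% with corn oil. The 25.2% was in agonist library 2, where Scn10a alone made up 23.7%. These shares depend on the merged exon lengths and are given as a description, since they rest on the same levels as the tests.

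**Figure D4:**
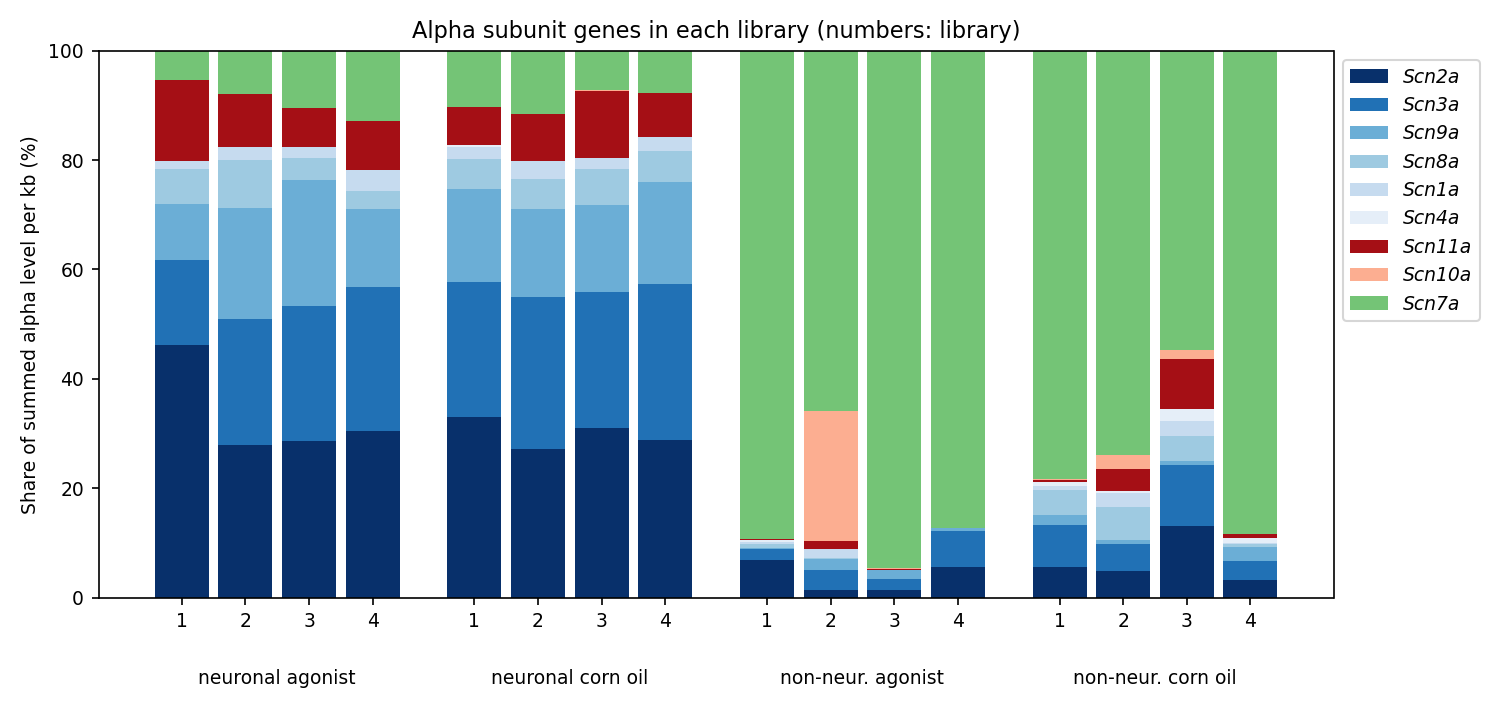
Share of each of 9 alpha subunit genes in their summed level per kb (percent, linear axis from 0), 1 bar a library. Blue shades are genes of tetrodotoxin-sensitive channels, red shades those of resistant channels and green is Scn7a, which averages 9.18% and 9.20% in the neuronal groups and 84.3% and 73.8% in the non-neuronal ones.

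The agonist response in neuronal nuclei asks whether AhR activation changed these genes within 14 hours. None of the 8 genes tested was called, and none was called among all 14182 genes tested (percent called 0 in each direction). At an unadjusted p under 0.05 edgeR found 711 genes (5.01%), none of them among the 8, and DESeq2 called 6 genes higher and 3 lower, again none of the 8. The agonist and corn oil libraries overlapped for every one of the 8 genes, while 1.47% of all genes were higher and 2.16% lower without overlap. Their log2 fold changes ran from -0.01 for Scn3a to 0.58 for Scn11a, with a median of 0.25 beside 0.08 over all genes. The 95% interval was -0.39 to 0.38 for Scn3a, -0.20 to 0.64 for Scn9a, -0.44 to 0.85 for Scn7a and -0.41 to 0.99 for Scn8a. It was -0.10 to 1.16 for Scn2a (value 0.53), -0.24 to 1.39 for Scn11a (0.58), -0.40 to 1.54 for Scn3b (0.57) and -0.69 to 0.94 for Scn1a (0.12).

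The larger of these values rested on neuronal agonist library 1, which was the highest of all neuronal libraries for Scn2a, Scn8a, Scn11a and Scn3b. Without it the log2 fold change was 0.05 for Scn2a, 0.03 for Scn11a, -0.01 for Scn8a and -0.18 for Scn3b. Mean levels of Scn3a were 512 ± 51.7 CPM in agonist and 513 ± 87.3 CPM in corn oil neuronal nuclei, and those of Scn9a 388 ± 68.5 and 334 ± 44.04 CPM (SD, n = 4). Scn8a varied more among agonist libraries, at 169.8 ± 84.1 CPM, than among corn oil libraries, at 139 ± 7.22 CPM.

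In non-neuronal nuclei, again none of the 8 genes passed with edgeR or DESeq2, and edgeR called 2 genes of 14846 higher (0.0135%) and none lower (0%), beside 18 higher and 17 lower with DESeq2. At an unadjusted p under 0.05 edgeR found 715 genes (4.82%), of which Scn8a was the only one of the 8. Scn8a had 14, 2, 10 and 1 counts in agonist and 126, 80, 37 and 29 counts in corn oil libraries. Every agonist library was below every corn oil library, as for 2.17% of all genes, while 1.25% were higher without overlap and none of the 8 was among them. The log2 fold change was -3.21 (SE 1.21, interval -5.78 to -0.63, unadjusted p = 0.0179, adjusted p = 0.954). With DESeq2 the adjusted p was 0.234, and over all alternatives it ran from 0.0701 to 1. Without the 2 libraries over 30% mitochondrial counts, both of them from agonist mice, the value was -3.89 with an adjusted p of 0.454.

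The 7 neuronal markers serve here as a measure of neuronal RNA in these libraries. Their sum by library size was 31.6, 87.4, 279 and 124 CPM in non-neuronal agonist and 162, 119, 81.6 and 316.5 CPM in non-neuronal corn oil libraries, and the groups overlapped. Among corn oil libraries 1 to 3 the order was that of Scn8a, while library 4 was the highest for the markers and the lowest for Scn8a. The agonist sums include Tubb3, which averaged higher in non-neuronal than in neuronal agonist nuclei and reached 46.3 TMM-scaled CPM in its highest non-neuronal agonist library. The part of neuronal RNA in the Scn8a difference was not tested. Scn11a had 16 counts in agonist and 66 in corn oil non-neuronal libraries, and Scn2b 3 and 58, of which corn oil library 2 held 45. Scn2a averaged 33.5 ± 20.5 CPM in agonist and 28.7 ± 7.24 CPM in corn oil non-neuronal nuclei, and Scn3a 33.5 ± 22.7 and 30.8 ± 13.5 CPM (SD, n = 4). The log2 fold change was 0.27 for Scn2a (interval -1.25 to 1.80), 0.18 for Scn3a (-1.36 to 1.72), 0.15 for Scn9a (-2.39 to 2.697) and 0.16 for Scn3b (-2.10 to 2.43). It was 0.93 for Scn7a (-0.16 to 2.02), -0.34 for Scn1a (-3.43 to 2.74) and -1.62 for Scn11a (-4.70 to 1.46), so that for most of these genes a change of several fold in either direction lay within the interval. These values are with TMM scaling. With library size the median of all genes moved by -0.41, and the values were -0.077 for Scn2a, -0.10 for Scn3a and -0.33 for Scn9a (the median moved by -0.10 in the neuronal comparison and by 0.24 in the difference of responses).

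Whether the agonist acted differently on the populations was fitted over all 16 libraries, as the response in neuronal minus that in non-neuronal nuclei. None of 18566 genes was called by edgeR (percent called 0), 1484 (7.99%) had an unadjusted p under 0.05, and DESeq2 called 72 higher and 29 lower. Among the channel genes Scn8a had a difference of 3.54 on the log2 scale (SE 0.88, interval 1.73 to 5.36, unadjusted p = 0.00051, adjusted p = 0.271). DESeq2 called it, at 3.48 with an adjusted p of 0.0312, as did edgeR without the count filter (3.57, adjusted p = 0.00301), and the range over alternatives was 0.00301 to 0.655. Scn11a had 2.35 (SE 1.097, unadjusted p = 0.0434, adjusted p = 0.608), and the other 6 genes lay between -0.69 for Scn7a and 0.55 for Scn1a.

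**Figure D5:**
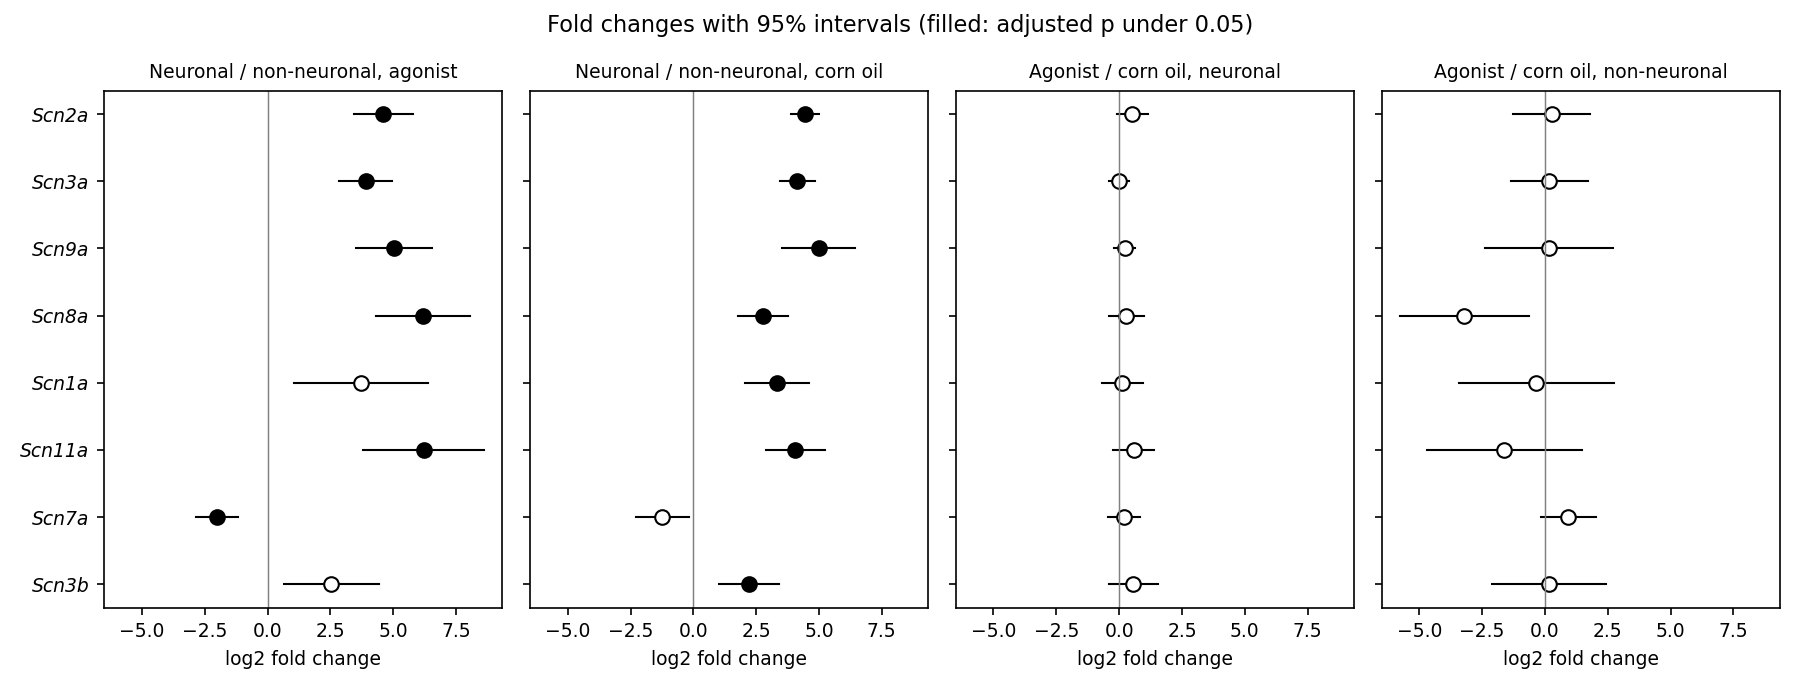
Log2 fold changes (points) with 95% intervals (lines) of the 8 genes tested, in the 4 comparisons of 2 groups. Filled points passed an adjusted p of 0.05. Population differences are on the left, with open points for Scn7a with corn oil and for Scn1a and Scn3b with agonist. Agonist values in neuronal nuclei run from -0.01 to 0.58, with intervals that reach to both sides of 0. Scn8a in non-neuronal nuclei lies at -3.21 without passing.

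Scn8a and Scn7a had the smallest unadjusted p for the agonist in non-neuronal nuclei, and the 250 bases before their start sites are shown because the agonist acts through a DNA-binding receptor. AhR with its partner ARNT is known to bind sites with the core GCGTG, which was searched on both strands, and capitals mark it (CACGC where it lies on the other strand). The sequences are from RefSeq in GRCm38.p6, which matched 7 of the 9 genes in 9 windows of 300 bases, and Scn8a is shown by the first of its windows.
Scn8a, chr15:100870395-100870644, plus strand: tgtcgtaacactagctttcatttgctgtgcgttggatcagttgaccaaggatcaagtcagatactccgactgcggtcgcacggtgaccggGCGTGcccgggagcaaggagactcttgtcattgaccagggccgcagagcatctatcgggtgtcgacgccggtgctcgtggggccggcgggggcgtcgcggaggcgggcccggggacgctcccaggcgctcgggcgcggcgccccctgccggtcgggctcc
Scn7a, chr2:66784911-66785160, minus strand: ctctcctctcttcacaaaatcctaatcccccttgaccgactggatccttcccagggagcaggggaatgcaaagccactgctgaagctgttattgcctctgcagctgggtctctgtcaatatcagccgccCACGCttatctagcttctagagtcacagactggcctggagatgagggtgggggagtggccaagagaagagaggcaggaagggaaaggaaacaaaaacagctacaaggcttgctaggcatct
The core was found in 4 of the 9 windows, those of Scn7a, Scn10a and both of Scn8a, beside 32.4% of 32851 windows of all genes. Both parts of the element of REST, a repressor of neuronal genes outside neurons, were searched as well. TTCAGCACC was in none of the 9 windows (0.371% of all windows) and GGACAG in 1 (22.2% of all). A match is a description of the letters and not a site of binding.

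The sodium leak channel genes and several partners of the sodium channels were higher in neuronal nuclei. Of the 4 genes of the sodium leak channel complex, which carries a resting sodium current, all 4 were higher with agonist and with corn oil. The pore gene Nalcn stood at 5.38 on the log2 scale with agonist (SE 0.91) and 4.33 with corn oil (SE 0.47), and its partners Unc79 at 4.49 and 5.49, Unc80 at 4.92 and 3.67 and Fam155a at 4.87 and 4.24. Of 14 partners and anchors of the channels, 6 were higher and 0 lower in each treatment. Their median log2 fold change was 1.58 with agonist and 1.33 with corn oil. Of all genes tested, 6.67% were higher and 6.97% lower with agonist, and 11.8% were higher and 13.5% lower with corn oil. The medians over all genes were -0.15 and -0.11. With agonist the partners were led by the adhesion molecules Cntn1 (4.29, adjusted p = 0.000957) and Nfasc (3.39), the channel-binding factor Fgf12 (5.18) and the initial segment anchor Ank3 (1.36). In neuronal agonist libraries Fgf12 had a median of 7.36 and a highest level of 50.7 CPM, and Ank3 727.5 and 2109 CPM. By library size the partners summed to 3082 CPM in neuronal agonist library 1 and 2093 to 2289 CPM in the others of that group. With corn oil the partners were led by Nfasc (2.68), Fgf13 (5.97), Ank3 (1.05) and Sptbn4, the spectrin of the initial segment (2.93). No gene of these lists was called for the agonist within a population, beside 0% of all genes in neuronal nuclei. In non-neuronal nuclei 0.0135% of all genes were higher and 0% lower.

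Of 5 genes of the sodium potassium pump, which restores the gradient, 0 were called higher in neuronal nuclei in either treatment. With 6.67% of all genes higher with agonist and 11.8% with corn oil, 0 of 5 does not set these genes apart. The shares lower were 6.97% and 13.5%. The median log2 fold change of the 5 was -0.26 with agonist and 0.068 with corn oil, beside -0.15 and -0.11 over all genes. The beta subunit gene Atp1b2 was lower with corn oil (-2.17, adjusted p = 0.0493) and had -3.57 with agonist (adjusted p = 0.0727). Of 7 other sodium channel genes 3 were tested between populations. The acid-sensing channels Asic1 and Asic2 were higher in neuronal nuclei with both treatments. Asic1 had 342 counts in neuronal and 0 in non-neuronal agonist libraries, which makes it at least 138-fold higher by library size (against 3 counts over the group), and its log2 fold change with corn oil was 5.77. For Asic2 the values were 5.73 with agonist and 3.19 with corn oil. Its neuronal agonist libraries had a median of 47.7 and a highest level of 195 TMM-scaled CPM. The epithelial channel gene Scnn1a was lower (-4.84 and -4.74), beside epithelial markers that summed to 902 to 3422 CPM in non-neuronal agonist and 1538 to 11030 CPM in non-neuronal corn oil libraries, against at most 101 CPM in neuronal ones. The part of epithelial RNA in this value was not tested.

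The genes whose pattern was most like each channel gene over the 16 libraries were ranked by Pearson's r of log2 CPM, as a description over libraries that share 2 populations. Scn2a was closest to Map2 (0.98), a protein of dendritic microtubules, and to Gm48451 and Ece2. Scn3a was closest to Rufy2 (0.982), Gm9916 and Sgip1, and Scn9a to the vesicle fusion gene Snap25 (0.988), Dlg2 and Gria2. Scn8a was closest to Gm45201 (0.985), Lrrtm1 and the calcium channel gene Cacna1b, and Scn1a to Gm47339 (0.971), Gm14827 and Rufy3. Scn11a was closest to the nitric oxide synthase gene Nos1 (0.976), Rimbp2 and Arhgap33. The values were lower for Scn3b, whose closest genes were Auts2 (0.929), Gm13543 and Ppp2r2b, and for Scn7a, whose closest were C130075A20Rik (0.899), Gm43805 and Lmo2.

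Little sequence was shared between the genes at read length. Of the 75-base words of their transcripts, 3.85% of Scn3a, 2.80% of Scn2a, 2.66% of Scn9a and 1.88% of Scn1a were shared with another of these 4 genes, and none of Scn7a, Scn8a, Scn11a or Scn3b with any of the other genes described. Scn9a shares 180 exon bases (1.41%) with the antisense gene Gm13629, and with no strand setting given, reads of the pair cannot be told apart there. With either strand of Gm13629 searched, 0.815% of the words of Scn9a, 0.727% of Scn3a and 0.184% of Scn2a were shared with it.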

How the data were processed

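Nuclear RNA of 16 libraries was sequenced as 75-base single-end reads, per the labels' protocols. The authors deposited 1 table of expected counts per gene, which are not scaled to library size. RSEM 1.3.0, STAR 2.5.2, DESeq2 1.10.1 and GRCm38 are named per the submitters' processing notes, and neither the annotation release nor the strand setting is given in the sources used here. Groups follow the labels (agonist or control), although the headers of the table also carry the name of a project on AhR knockout and wild type mice.

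Expected counts were rounded and tested in edgeR 4.0.16 (R 4.3.3) with TMM scaling, filterByExpr (minimum count 10, minimum total 15) and robust two-sided quasi-likelihood F-tests, on the whole table. A gene was called where the p adjusted by Benjamini-Hochberg was under 0.05. The comparisons of 2 groups used 8 libraries and the difference of responses all 16. Printed levels are CPM with TMM factors over all 16 libraries, per kb of merged GENCODE M21 exons where stated. Marker sums are CPM by library size. SE is the log2 fold change divided by the square root of F. A count of 0 was given a limit of 3 counts over the group, for counting error only. The scripts were tested on simulated counts.

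The 9 genes, the lists and the tests were chosen with earlier results of these data known. By rule, all 9 genes were named, with 3 other Scn genes, up to 4 genes of each list by adjusted p, and the 3 most alike genes. Alternatives were library size scaling, DESeq2 1.42.0, no count filter, all libraries in 1 fit, a replicate block, mitochondrially encoded genes removed, libraries over 30% mitochondrial counts left out, and each library left out. Libraries of a group differed by at least 8.78 in chi-square per degree of freedom, so none was a copy. Deviations of neuronal and non-neuronal samples of 1 treatment with the same replicate number correlated at -0.0052 to 0.082. These values cannot tell whether such samples share a mouse. Agonist and corn oil samples of the same number, which are of different mice by their injection, correlated at -0.12 to 0.226. A few genes and a sequence that the lists would have named are not reported here.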

Additional observations from a re-analysis of the deposited data

Results flagged for a closer look

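In 34 sets of 4 libraries, 1 library was checked for standing far from the other 3 (Dixon's ratio of gap to range, at the 95% limit), and 6 sets passed. Chance flags about 1 in 20 sets. Of the 6, 3 came from neuronal agonist library 1 and 3 from non-neuronal agonist library 2. All levels are TMM-scaled CPM over 16 libraries.

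In neuronal agonist library 1, Scn2a stood at 1553 CPM beside 563.5 to 685 in the other 3, Scn11a at 234 beside 67.5 to 92.1, and Scn3b at 220 (219.6) beside 47.9 to 70.8. That library had the fewest genes detected (17293) and the lowest TMM factor of the neuronal ones (0.903), and the part of either in these levels was not tested.

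In non-neuronal agonist library 2, Scn10a stood at 119 CPM (118.7) beside 0 to 1.31 in the other 3, Scn1a at 12.2 (12.18) beside 0 to 1.89, and Scn11a at 5.42 (5.415) beside 0 to 0.785. Mitochondrially encoded transcripts took 33.3% of its counts, and its 7 neuronal markers summed to 87.4 CPM, within the range of its group. The part of either in these levels was not tested.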

How the results depend on the processing

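Of 232 refits of the log2 fold changes of single channel genes between populations, 215 kept direction and side of the threshold, 15 gained the call, 2 lost it and none changed sign. Scn7a with corn oil gained it with DESeq2 (-1.27) and with no count filter (-1.17), so that the count of the 9 genes called lower was 1 in each. Scn7a with agonist lost it with library size (count 0), and with no filter the count was 2, Scn10a being the added gene, of whose 268 non-neuronal agonist counts library 2 held 263. Scn1a and Scn3b with agonist gained it in several alternatives, and Scn3b with corn oil lost it with all 16 libraries in 1 fit. The filter and the pooled fit change how many genes and libraries share a spread estimate, and otherwise the cause was not tested.

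Counts over all genes moved more. With corn oil, 1047 were higher in the pooled fit and 3499 lower with no filter. With agonist, 649 were lower with library size, 1577 with DESeq2 and 2127 with no filter, and the pooled fit gave 1959 higher and 2631 lower. For the agonist in neuronal nuclei DESeq2 gave 6 and 3 and no filter 142 and 10. In non-neuronal nuclei library size gave 0 higher, DESeq2 18 higher and 17 lower, no filter 65 and 23, the pooled fit 1 and 10, and leaving out the libraries over 30% mitochondrial counts 1 higher. For the difference of responses DESeq2 gave 72 and 29 and no filter 72 and 38, each with 1 of the 9 genes (Scn8a), and leaving out those libraries 5 and 2.

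Each library left out in turn gave 1413 to 2259 genes higher and 1927 to 2476 lower with corn oil, with 7 of the 9 genes higher throughout and 0 to 1 lower. With agonist it gave 686 to 1017 higher and 857 to 1091 lower, with 5 to 6 of the 9 higher and 1 lower. It gave 0 to 2 genes higher for the agonist in non-neuronal nuclei, and 0 to 8 higher and 0 to 1 lower for the difference.

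All changes of sign were of agonist values that passed no test. In neuronal nuclei Scn3a was 0.02 with DESeq2. In non-neuronal nuclei library size gave -0.077 for Scn2a, -0.10 for Scn3a and -0.33 for Scn9a. For the difference, without the libraries over 30% mitochondrial counts, Scn9a was -0.16 and Scn3b -0.064. With 1 library left out, neuronal values ran from -0.17 to 0.34 for Scn1a, -0.088 to 0.086 for Scn3a, -0.0083 to 0.49 for Scn8a and -0.18 to 0.79 for Scn3b. Non-neuronal values ran from -2.55 to 0.21 for Scn1a, -0.092 to 0.56 for Scn2a, -0.39 to 0.47 for Scn3a, -0.50 to 1.18 for Scn9a and -1.09 to 0.91 for Scn3b. Differences ran from -0.24 to 0.66 for Scn2a, -0.44 to 0.44 for Scn3a, -1.01 to 0.68 for Scn9a and -0.42 to 1.74 for Scn3b.

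Neuronal and non-neuronal samples of 1 treatment with the same replicate number are not known to share a mouse. Correlations of their deviations ran from -0.0052 to 0.082, which cannot tell whether they do. Between agonist and corn oil samples, which are of different mice, the same number gave -0.12 to 0.226. With the number as a replicate block, Scn1a (5.25, adjusted p = 0.0169) and Scn3b (3.07, adjusted p = 0.039) were called higher with agonist. The block turned the sign of uncalled values for Scn3a in neuronal nuclei (0.0052), Scn3b in non-neuronal nuclei (-0.21) and Scn3a and Scn9a in the difference (0.011 and -0.031). Depth limits the low genes most: Scn8a rests on 27 counts over the non-neuronal agonist libraries and Scn11a on 16.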
